A study of Mus musculus with 8 samples.

Results

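The immediate early and heat shock genes of the mouse ascending thoracic aorta were followed across 4 cell groups of the digested tissue. The list holds 43 genes, 35 immediate early or early feedback genes and 8 heat shock chaperones, out of 32285 genes in the deposited matrix, and each of the 43 symbols matched 1 row. The aortas came from 3 wild-type mice, 1 each of 11, 12 and 13 weeks, marked with TotalSeq-B hashtags 1, 2 and 3, and the labels name no treatment and 1 protocol for all. Each hashtag was read as 1 animal and 1 sample (n = 3), and with 1 animal per age no test between ages was made. The labels list 4 gene expression and 4 hashtag libraries, but barcodes carry a single suffix and could not be assigned to a library. Barcodes were grouped by marker transcripts that are not on the list. Smooth muscle (SMC) barcodes had at least 1.5% of their UMIs (unique molecular identifiers, one per captured transcript) from Acta2, Tagln and Myh11, and fibroblast barcodes at least 0.3% from Dcn. Endothelial barcodes had at least 3 UMIs of Pecam1, Cdh5 and Gpihbp1, and macrophage barcodes at least 3 UMIs of C1qa, C1qb and C1qc.

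Immediate early genes are transcribed within minutes of a stimulus without new protein synthesis. Growth factor and stress signals run through MAP kinases to factors already present in the cell, among them SRF with its ELK partners and CREB, and the products are mostly transcription factors (the FOS and JUN families of AP-1, EGR, NR4A, KLF) and proteins that shut the response down. Heat shock genes encode chaperones that hold or refold proteins, and the factor HSF1 drives them when unfolded proteins accumulate. In arteries, KLF2 and KLF4 are known as endothelial genes that respond to laminar shear. Both families are also known to be induced while tissue is dissociated with warm enzymes. All samples here were digested for 60 min at 37 °C, so levels of the intact wall and levels set during digestion cannot be told apart.

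Promoters of 4 members are shown because they carry the elements these families are known for and because the results below turn on them. They give the 250 bases upstream of the start on the gene's strand, 5′ to 3′, from RefSeq on GRCm38.p6, which is mm10. Capitals mark a MEF2 site in Klf2, the TGACG cAMP response half-sites and the TATA box (TATAAA) in Fos, and a heat shock element of 2 units and a CCAAT box (here on the other strand, as ATTGG) in Hspa1b and Hspa1a. Klf2 lies at chr8:72318812-72319061 on the + strand, Fos at chr12:85473640-85473889 on the + strand, and the pair Hspa1b and Hspa1a at chr17:34959239-34959488 and chr17:34972157-34972406, both on the - strand.
Klf2: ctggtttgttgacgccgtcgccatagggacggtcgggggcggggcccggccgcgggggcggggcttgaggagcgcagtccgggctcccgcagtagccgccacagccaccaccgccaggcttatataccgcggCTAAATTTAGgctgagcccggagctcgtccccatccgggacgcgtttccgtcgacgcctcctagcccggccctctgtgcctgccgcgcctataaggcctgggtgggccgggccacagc
Fos: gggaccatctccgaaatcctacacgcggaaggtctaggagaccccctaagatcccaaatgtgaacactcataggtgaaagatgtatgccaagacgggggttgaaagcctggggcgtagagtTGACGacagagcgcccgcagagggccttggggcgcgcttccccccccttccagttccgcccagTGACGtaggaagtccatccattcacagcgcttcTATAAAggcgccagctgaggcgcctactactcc
Hspa1b: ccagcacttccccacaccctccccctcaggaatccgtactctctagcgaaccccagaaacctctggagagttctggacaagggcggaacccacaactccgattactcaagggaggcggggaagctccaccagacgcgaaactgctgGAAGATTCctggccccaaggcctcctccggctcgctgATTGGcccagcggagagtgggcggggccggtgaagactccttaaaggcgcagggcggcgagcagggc
Hspa1a: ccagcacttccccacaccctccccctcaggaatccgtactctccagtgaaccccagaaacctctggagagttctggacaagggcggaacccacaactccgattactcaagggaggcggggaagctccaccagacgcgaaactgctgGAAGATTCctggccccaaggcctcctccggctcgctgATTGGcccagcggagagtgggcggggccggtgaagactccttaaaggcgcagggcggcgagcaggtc
The Hspa1a and Hspa1b windows were identical at 247 of 250 bases (98.8%). They differed by C44T, T47C and T249G, counted from 1 at the 5′ end of the window with the Hspa1a base first. The transcripts of the 2 genes are also near-identical copies, so reads may have been split between them and their separate counts are uncertain.

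Windows of 300 bases, from 250 before to 50 after the start, were searched for 6 motifs in the 35 members with an entry (45 windows, since some genes have several starts). Hsp90aa1, Egr3, Egr1, Klf10, Cebpd, Ier2, Hspa8 and Myc had no window. The heat shock element of 2 units (GAANNTTC or TTCNNGAA, both of which read the same on either strand) occurred in 8 members. These were Hspa1a, Hspa1b, Hsph1, Dnaja1 and Hspb1 of the chaperones and Jun, Fosl2 and Egr2 of the others. By window that was 9 of 45, against 15.1% of all 32851 windows. TGACG on either strand occurred in 18 members, including Fos, Fosb, Atf3, Nr4a1, Nr4a2, Nr4a3 and Dusp1. By window that was 21 of 45, against 20.8% of all windows. The MEF2 site, on either strand, was found in 4 members (Atf3, Jun, Klf2 and Nr4a2), or 4 of 45 windows, and 3.19% of all windows. The CArG box, the core bound by SRF, was found on either strand in Egr2 and Zfp36, or 5 of 45 windows, and in 1.63% of all windows. Overlapping windows of a gene count the same site again, as with CCATATATGG in Egr2. Counts by window are therefore not counts of distinct sites, for this and the other motifs. The TATA box, searched on the + strand, was found in 7 members, or 7 of 45 windows, and 8.32% of all windows. CCAAT on either strand was found in 19 members, or 23 of 45 windows, and 37.4% of all windows. In the Zfp36l1 window the TATA and CCAAT boxes share a base. These are matches of letters, not measured binding.

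After filters (at least 500 genes, at most 20% mitochondrial UMIs, under 10 haemoglobin UMIs) 9939 of 48467 barcodes remained, of which 6722 were SMC, 1395 fibroblast, 699 endothelial and 74 macrophage. Median UMIs per barcode were 7315.5, 4531, 2599 and 3044.5, and median mitochondrial shares 9.88%, 9.46%, 13.9% and 13.1%. Only barcodes with 1 clear hashtag entered the tests: 402 to 603 SMC, 74 to 141 fibroblast, 120 to 217 endothelial and 13 to 26 macrophage barcodes per hashtag, or 47739 UMIs in the smallest macrophage sum and 4676525 in the largest SMC sum. No hashtag was called in 4383 SMC (65.2%), 942 fibroblast (67.5%), 23 endothelial (3.29%) and 0 macrophage barcodes. Each group's own marker list was fully detected (9 of 9 smooth muscle, 8 of 8 fibroblast, 9 of 9 endothelial and 9 of 9 macrophage markers) and stood at 20255 to 38332 summed CPM (counts per 1e+06 gene UMIs). The lists include the gate genes, so detection and level were partly set by the gates and are no independent check of the groups. Smooth muscle transcripts were also present elsewhere. The 6 smooth muscle markers outside the gate stood in fibroblast, endothelial and macrophage barcodes at 10.2%, 15.7% and 12.9% of their SMC level, and the whole list of 9 ranged over hashtags from 3074 to 3812, 3907 to 5191 and 2957 to 7268 CPM in the 3 groups against 37009 to 38195 in SMC. Fibroblast markers reached at most 1049 summed CPM and endothelial markers at most 491 outside their own groups, and Gpihbp1, Tie1 and Vwf were at 0 in macrophage barcodes. The part of smooth muscle RNA in the results was not tested, except where a member's level is set beside these percentages. Most endothelial barcodes carried the capillary gene Gpihbp1 and no Vwf, a large-vessel gene (counts are given with the splits below). Gpihbp1 is a gate gene and Vwf is not, so this share is partly set by the gate. Endothelial values and contrasts below therefore describe mainly such barcodes, not the large-vessel lining alone.

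Summed over the list, immediate early RNA was highest in endothelial samples among the 3 large groups and heat shock RNA lowest in fibroblasts. These sums were not tested. The 35 immediate early genes together made up 3472, 3415 and 3408 CPM in the SMC samples of hashtags 1, 2 and 3, and 4024, 3630 and 3820 CPM in fibroblasts. In endothelial barcodes they made up 6602, 6734 and 8356 CPM, above every SMC and fibroblast sample. Much of the excess over SMC came from Klf2 and Klf4. Pooled over all barcodes, these stood at 1106 and 604 CPM in endothelium and 59.7 and 28.5 CPM in SMC. The rise was not shared by all. In the edgeR test described below, 18 of 32 tested were higher in endothelium than in SMC and 5 lower, against 24.1% and 26.6% of all genes. The macrophage samples spread from 2853 to 8388 CPM and overlapped all other groups. The 8 heat shock genes gave 3025, 2936 and 3224 CPM in SMC and 1734, 1737 and 1744 CPM in fibroblasts, groups that did not overlap. Endothelial samples held 2813, 3284 and 5892 CPM and macrophage samples 1843, 2325 and 3947 CPM. In both groups hashtag 3 was highest and the range spanned the SMC values.

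**Figure D1:**
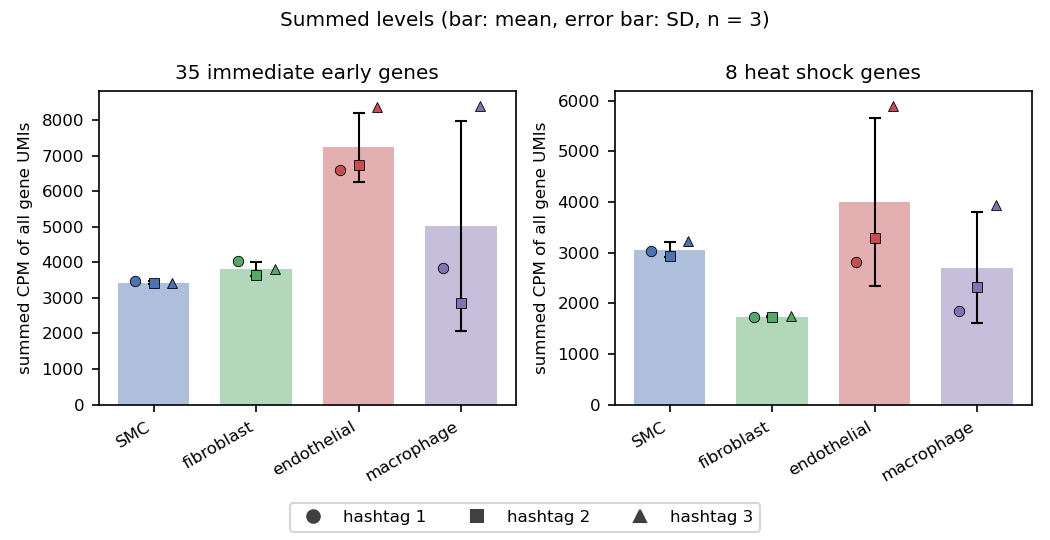
Summed CPM (vertical axes) of the 35 immediate early genes and of the 8 heat shock genes in the 4 cell groups. Bars are means, error bars SD and symbols the 3 hashtag samples, and hashtag 3 lies above the other samples in endothelial and macrophage barcodes.

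Members were tested in sums of counts per hashtag and group with edgeR, among 8459 genes that passed its filter on low counts. All but 3 members passed: Egr2, Nr4a3 and Myc were not tested. Between fibroblast and SMC barcodes 9 of 40 members were higher and 16 lower, against 19.9% and 19.4% of all genes tested, and the members' median log2 fold change was -0.27 beside -0.01 for all genes. The 3 samples of a group lay wholly above or below those of SMC in 28 members, against 25.5% of all genes above and 27.6% below. In endothelial against SMC barcodes 21 were higher and 7 lower, against 24.1% and 26.6% of all genes, with a median of 0.48 beside -0.04, and 21 members did not overlap, against 27.8% of genes above and 33.0% below. In macrophage against SMC barcodes 13 were higher and 4 lower, against 13.6% and 19.8%, with a median of 0.23 beside -0.37, and 10 members did not overlap, against 16.3% above and 37.7% below. These 3 comparisons share the SMC samples. Besides the calls marked below, those of Fosb, Dusp1, Nfkbia, Klf6, Gadd45g and Junb in fibroblasts, and of Cebpb and Dusp1 in endothelium, were among those lost under DESeq2, and that of Hspa1a in fibroblasts with hashtags called by a margin. Calls by margin also moved, in fibroblasts against SMC, Btg2 to -0.81, Atf3 to -1.34, Hspb1 to -1.19, Fos to -0.77 and Btg1 to -2.29, all still called. The sections that follow take the members by role, with TMM-scaled CPM in the order of hashtags 1, 2 and 3. CPM of a 3′ tagged library are compared for 1 gene between groups, never between genes.

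**Figure D2:**
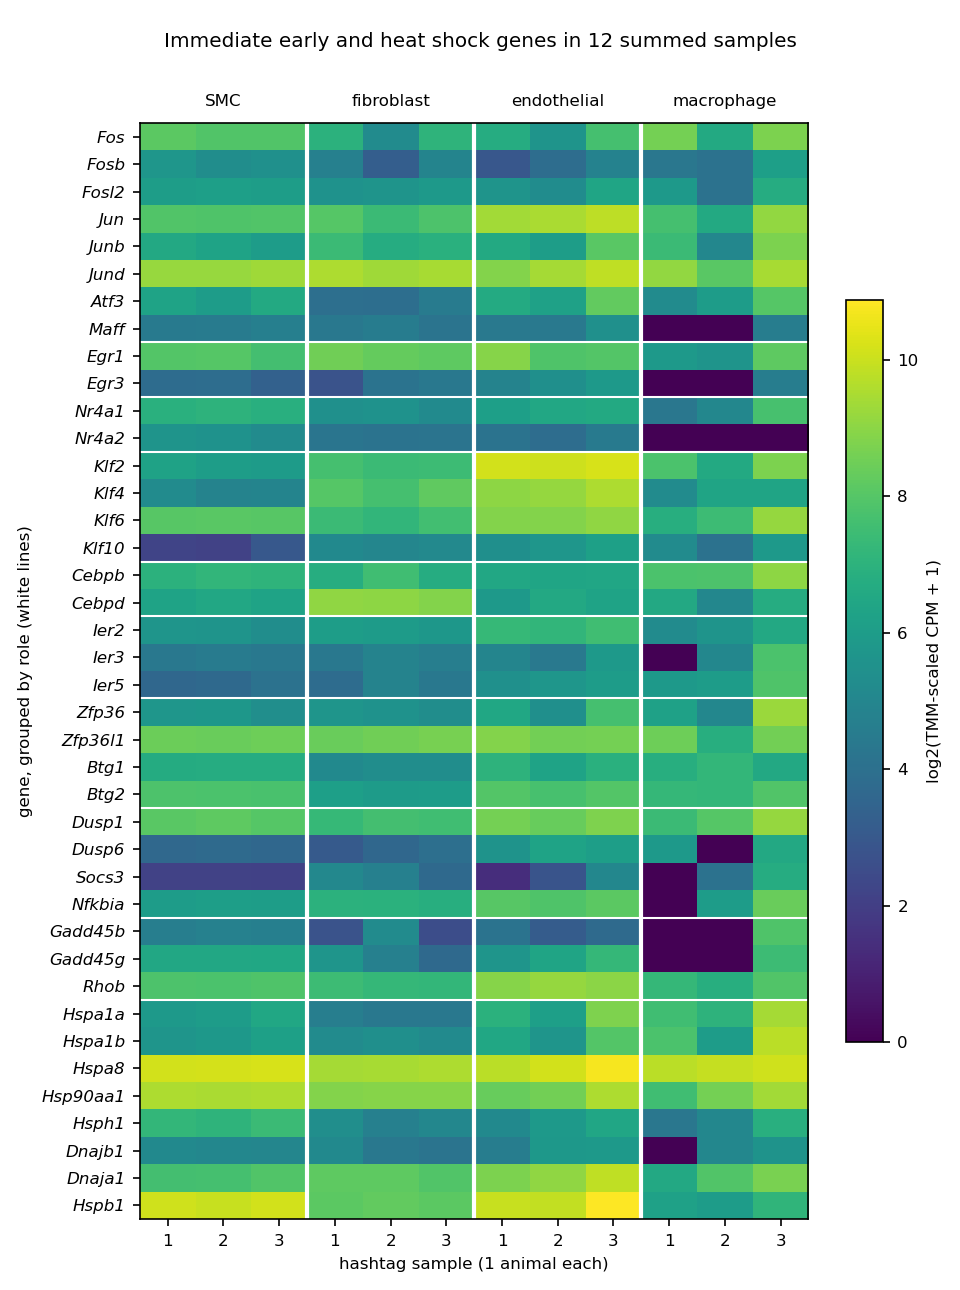
Colour gives log2 of TMM-scaled CPM plus 1 for the 40 tested members (rows, grouped by role between white lines) in 12 sums, 3 hashtag samples in each of 4 cell groups (columns). Klf2, Klf4 and Jun stand out in the endothelial columns, Cebpd in the fibroblast columns, and many rows of the third macrophage column are brighter than the other macrophage columns.

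AP-1 is a dimer of FOS and JUN proteins, with ATF3 and MAFF as related partners. Fos and Fosb were highest in smooth muscle among the 3 large groups, while Jun was highest in endothelium. Fos stood at 279.6, 242 and 239 CPM in SMC, 126, 36.7 and 134 CPM in fibroblast and 106, 48.1 and 201 CPM in endothelial samples. No fibroblast or endothelial sample reached the lowest SMC sample, and in both groups hashtag 2 was the lowest. The log2 fold change against SMC was -1.36 ± 0.20 (SE) in fibroblasts (edgeR adjusted p = 1.43e-07) and -1.14 ± 0.19 in endothelium (adjusted p = 9.75e-07). Macrophage samples had 391, 96.6 and 419.6 CPM of Fos, which spanned the SMC values, and the difference of 0.22 ± 0.29 did not pass the test (adjusted p = 0.608). Fosb, a FOS family subunit, read 51.7, 39.7 and 43.5 CPM in SMC and 6.71, 14.0 and 27.1 CPM in endothelial samples, again without overlap, a log2 fold change of -1.49 ± 0.29. In fibroblasts the Fosb fold change was -1.05 ± 0.29. Without hashtag 3 the endothelial fold changes were -1.79 for Fos and -2.19 for Fosb.

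Jun gave the opposite order, with 656, 723 and 881 CPM in endothelial and 242, 232 and 239.9 CPM in SMC samples. Every endothelial sample lay above every SMC sample, and the fold change was 1.65 ± 0.13 (edgeR adjusted p = 8.78e-16). Fibroblast samples, at 256, 169 and 229 CPM, overlapped the SMC samples, with a difference of -0.10 ± 0.15 that did not pass the test. Jund, the JUN family member least tied to stimulation and the one of this role with most UMIs, stood at 588, 596 and 644 CPM in SMC, 743, 649 and 693 CPM in fibroblast and 468, 689 and 916 CPM in endothelial samples, so fibroblasts lay just above SMC and endothelium overlapped it. No comparison with SMC passed the test (log2 differences 0.20 ± 0.13, 0.16 ± 0.13 and, in macrophages, -0.25 ± 0.20). Junb, another JUN subunit, read 170.4, 107 and 119 CPM in fibroblasts against 93.3, 77.8 and 63.2 CPM in SMC, a small but non-overlapping difference of 0.77 ± 0.24 (adjusted p = 0.00707). It fell short of the threshold without hashtag 1.

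Atf3, a stress-induced partner, separated fibroblasts from the rest. It read 14.9, 14.1 and 21.9 CPM in fibroblasts and 77.5, 63.7 and 96.9 CPM in SMC, with no overlap and a fold change of -2.27 ± 0.31 (edgeR adjusted p = 2.11e-08). In endothelial samples it was 101, 74.1 and 309 CPM, and the call (log2 0.92) rests on hashtag 3: without it the fold change was 0.31 (adjusted p = 0.209). Junb in endothelium did likewise, with 95.7, 66.1 and 271 CPM and a log2 fold change of 0.85 that became -0.08 without hashtag 3. Of the remaining members of this role, Fosl2 and Maff passed the test in none of the 3 comparisons. In macrophages Junb alone of the 8 passed (1.49 ± 0.42), and without hashtag 3 its fold change was 0.12 (adjusted p = 0.896).

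**Figure D3:**
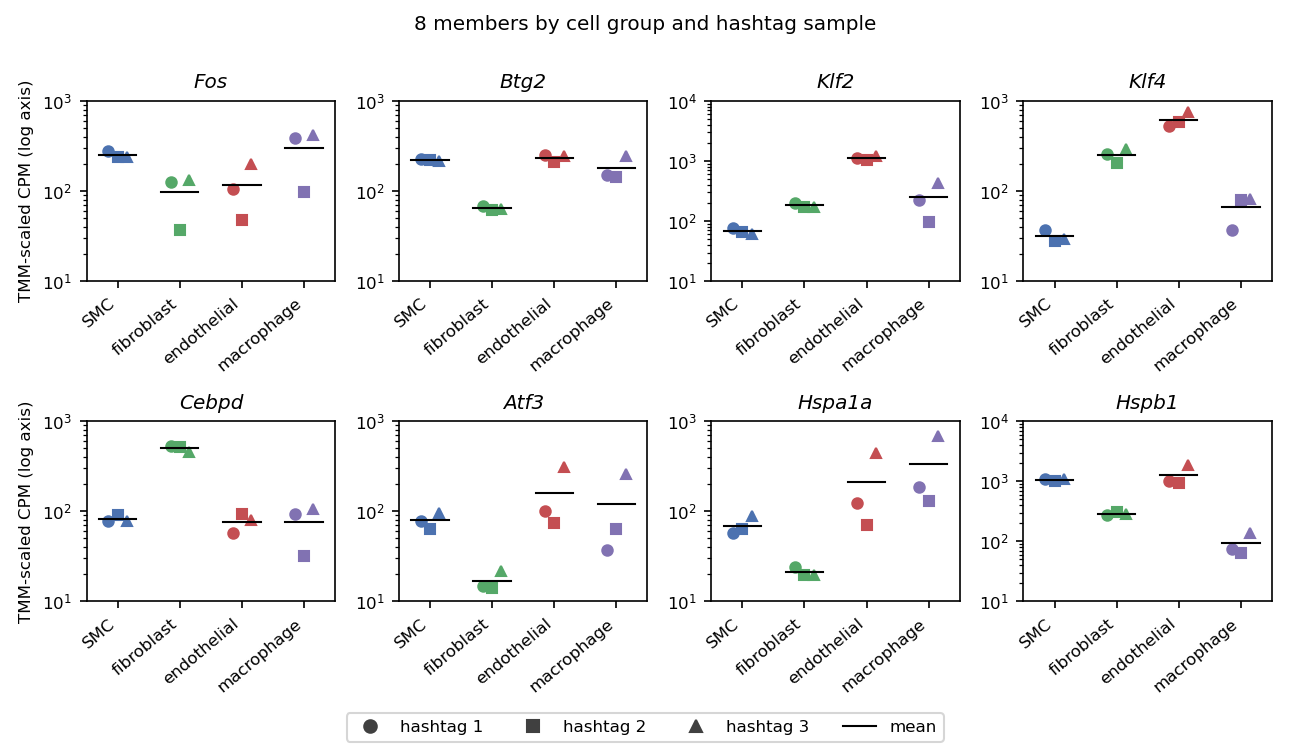
TMM-scaled CPM on log axes for 8 members in the 4 cell groups, with 1 symbol per hashtag sample and a line at the mean of 3. Fos and Btg2 are low in fibroblasts, Klf2 and Klf4 high in endothelium, Cebpd high in fibroblasts, and hashtag 3 is the highest symbol for Atf3 and Hspa1a in endothelial and macrophage samples.

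The EGR zinc fingers are SRF targets. Egr1, the most counted of them, read 247, 257 and 197 CPM in SMC, 362, 313 and 289 CPM in fibroblast and 473, 238 and 247 CPM in endothelial samples. Fibroblasts lay above SMC without overlap, by 0.45 ± 0.16 (edgeR adjusted p = 0.0174), but the call was lost without hashtag 1 and without hashtag 3. In endothelium hashtag 1 alone was high, and the fold change of 0.44 was also lost without it. Egr3 was called only in endothelium against SMC, with 28.5, 42.1 and 57.3 CPM against 13.4, 13.7 and 9.49 CPM and 1.77 ± 0.29. Egr2, left out of the test, held 57 UMIs in all SMC barcodes, or 1.14 CPM (95% interval 0.866 to 1.48), and 39 UMIs in fibroblasts, or 5.77 CPM (95% interval 4.10 to 7.88). These intervals cover counting error only.

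The NR4A orphan nuclear receptors, which need no ligand and are controlled by how much is made, were highest in smooth muscle among the large groups. Nr4a1 read 118, 129.7 and 114 CPM in SMC, 43.3, 45.1 and 36.5 CPM in fibroblast and 68.8, 90.2 and 97.1 CPM in endothelial samples, 3 groups with no overlap. Against SMC the fold change was -1.51 ± 0.22 in fibroblasts (edgeR adjusted p = 6.02e-08) and -0.50 ± 0.17 in endothelium (adjusted p = 0.013), the latter lost without hashtag 1. Nr4a2 gave 49.0, 45.8 and 37.3 CPM in SMC against 17.9, 16.9 and 17.0 CPM in fibroblasts and 16.8, 14.0 and 20.7 CPM in endothelium. It was lower in both, with log2 fold changes of -1.35 ± 0.28 and -1.33 ± 0.26, and every sample of both lay under every SMC sample. No UMI of Nr4a2 was seen in the macrophage sums. Set against a floor of 3 counts over the group, SMC were at least 2.42-fold higher, so the fitted fold change is not quoted. Nr4a3, not tested, stood at 13.1 CPM (95% interval 12.1 to 14.1) in all SMC barcodes and 5.18 CPM (95% interval 3.61 to 7.20) in fibroblasts.

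The KLF zinc fingers include Klf4, the member furthest up in both the fibroblast and the endothelial comparison. All 4 were higher in endothelium than in SMC, against 24.1% of all genes. Klf2, shown above with its MEF2 site, read 1126, 1052 and 1204 CPM in endothelial and 76.0, 66.0 and 61.5 CPM in SMC samples. The groups were far apart, and the log2 fold change was 4.05 ± 0.13 (edgeR adjusted p = 1.56e-31). Fibroblasts had 202, 172 and 173 CPM, between these groups and overlapping neither, which is 1.43 ± 0.16 above SMC. Macrophage samples spread over 224, 96.6 and 431 CPM, all above the SMC samples, at 1.98 ± 0.28, or 1.09 without hashtag 3.

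Klf4, the other shear-responsive member, went from 37.3, 27.8 and 29.5 CPM in SMC through 256, 203 and 297 CPM in fibroblasts to 525, 579 and 747 CPM in endothelium. These 3 groups did not overlap, and the fold changes against SMC were 2.98 ± 0.15 and 4.26 ± 0.14. With each barcode thinned to 1000 UMIs, Klf4 had a UMI in 2.66% (2.29 to 3.08%) of SMC and 39.9% (36.3 to 43.7%) of endothelial barcodes, and Klf2 in 5.06% (4.55 to 5.61%) and 60.7% (56.9 to 64.3%) (exact 95% binomial intervals, counting error only). The unthinned shares were 14.6% and 64.2% for Klf4 and 25.0% and 83.3% for Klf2, at the median depths given above. Klf10, a TGF-beta inducible factor, stood at 3.66, 3.43 and 6.87 CPM in SMC and was higher in all 3 other groups, with 42.0, 52.1 and 71.7 CPM in endothelium (3.54 ± 0.29), 34.4, 31.0 and 34.0 CPM in fibroblasts (2.85 ± 0.34) and 37.3, 16.1 and 58.3 CPM in macrophages (3.01 ± 0.72). The macrophage call was lost without hashtag 3, where the fold change was 2.77 (adjusted p = 0.0873). Klf6, the most counted KLF gene, was 264, 269.7 and 264 CPM in SMC, 169, 141 and 192 CPM in fibroblasts and 465, 467 and 537 CPM in endothelium, so it was lower in the former (-0.66 ± 0.16) and higher in the latter (0.87 ± 0.13).

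**Figure D4:**
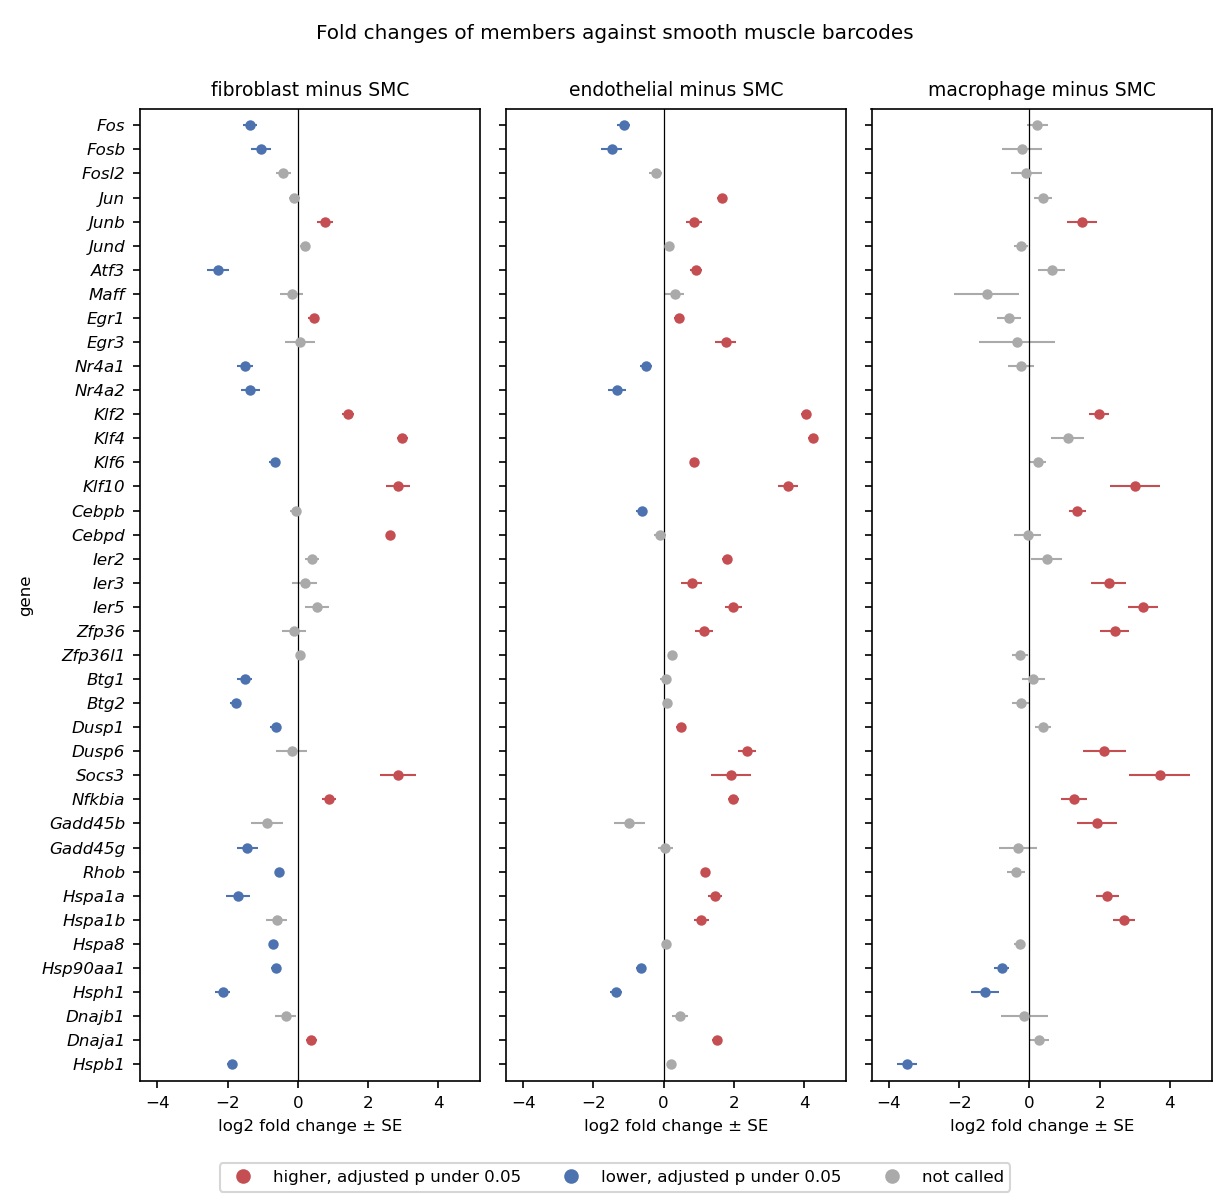
Log2 fold change with its SE (horizontal axes) of each tested member against SMC in fibroblast, endothelial and macrophage samples. Red marks higher, blue lower and grey not called at an edgeR adjusted p of 0.05, Klf4 in endothelium reaches 4.26, and Nr4a2 in macrophages is left out because it had no UMI there.

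The C/EBP factors, which act in acute phase and adipogenic transcription, each marked 1 group. Cebpd read 532, 516 and 459 CPM in fibroblasts and 78.2, 91.5 and 77.6 CPM in SMC, 2.62 ± 0.12 on the log2 scale (edgeR adjusted p = 1.12e-24). Endothelial and macrophage samples, at 57.1, 94.2 and 79.6 CPM and 93.2, 32.2 and 105 CPM, overlapped SMC, and neither difference passed the test. Fibroblasts thus stood apart, and the direct contrast of endothelium against fibroblasts was -2.73 ± 0.16. Cebpb was highest in macrophages, with 224, 226 and 524 CPM against 128, 143 and 134 CPM in SMC and 90.6, 84.1 and 86.0 CPM in endothelium. Its fold change in macrophages was 1.36 ± 0.24 (adjusted p = 9.49e-06), and 0.67 (adjusted p = 0.163) without hashtag 3. Endothelial samples lay below all SMC samples (-0.63 ± 0.17).

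The IER genes encode short-lived nuclear or apoptosis-related regulators. All 3 were called higher in endothelium than in SMC, against 24.1% of all genes. Ier2 read 154, 140.2 and 185 CPM against 49.7, 49.2 and 39.0 CPM, without overlap, and 1.80 ± 0.15. Ier5 gave 43.6, 52.1 and 63.7 CPM in endothelium, 55.9, 64.4 and 233 CPM in macrophages and 11.5, 12.2 and 16.0 CPM in SMC. Both groups lay above every SMC sample, by 1.98 ± 0.25 and 3.24 ± 0.42, and the macrophage call held without hashtag 3, at 2.26 (edgeR adjusted p = 0.0237). Ier3 in macrophages was 0, 32.2 and 221 CPM, 1 high sample beside a 0, and its fold change of 2.26 became -0.31 without hashtag 3. In endothelium the Ier3 fold change of 0.80 was also lost without that sample (0.31, adjusted p = 0.539). No IER gene was called in fibroblasts.

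Of the 4 genes of mRNA decay and growth arrest, Btg1 and Btg2 were lower in fibroblasts than in SMC, and Zfp36 and Zfp36l1 were not called there. Btg2, an antiproliferative factor that recruits the deadenylase, read 229, 222 and 217 CPM in SMC, 68.7, 62.1 and 63.2 CPM in fibroblasts and 252, 208 and 247 CPM in endothelium. Fibroblasts lay far below both, with -1.78 ± 0.16 against SMC (edgeR adjusted p = 7.83e-14), while endothelium and SMC overlapped (0.08 ± 0.12, not called). Its paralog Btg1 followed the same order, with 104, 107 and 106 CPM in SMC and 34.4, 39.5 and 38.9 CPM in fibroblasts, -1.52 ± 0.20. Zfp36l1, an AU-rich element binding protein and the most counted of this role, was 348, 334 and 356 CPM in SMC and was called in no comparison with SMC. Zfp36 itself, the inducible relative, was 50.9, 52.6 and 40.9 CPM in SMC and 74.5, 32.2 and 606 CPM in macrophages. The fold change there was 2.42 ± 0.42, and -0.03 without hashtag 3. In endothelium its 89.0, 42.1 and 201 CPM gave 1.15 ± 0.26, and 0.37 (adjusted p = 0.221) without hashtag 3.

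All 4 feedback inhibitors were called higher in endothelium than in SMC, against 24.1% of all genes. The call of Socs3 was lost without hashtag 3 and that of Dusp1 under DESeq2. Dusp6, a cytoplasmic phosphatase of ERK, stood at 47.0, 78.1 and 66.9 CPM against 11.9, 12.6 and 11.5 CPM, without overlap and with 2.37 ± 0.25. Nfkbia, the inhibitor of NF-κB, stood at 265, 234 and 283 CPM against 64.1, 67.5 and 66.4 CPM, with 1.98 ± 0.16, and at 126, 124 and 112 CPM in fibroblasts, with 0.88 ± 0.19. Both groups lay above SMC in each animal. Dusp1, a nuclear phosphatase of p38 and JNK and the most counted of the 4, was 271, 290.3 and 260.2 CPM in SMC. It was lower in fibroblasts, at 155, 195 and 187 CPM (-0.63 ± 0.15), and higher in endothelium, at 393, 325 and 436 CPM (0.49 ± 0.13). Socs3, the inhibitor of cytokine receptor kinases, was 3.41, 3.43 and 3.27 CPM in SMC and read 32.9, 25.4 and 12.2 CPM in fibroblasts, 2.86 ± 0.51 (edgeR adjusted p = 6.10e-06). In endothelium (1.68, 6.01 and 31.8 CPM) and macrophages (0, 16.1 and 105 CPM) hashtag 3 was the high sample. Without it the Socs3 fold changes were 0.09 and 1.25 and neither passed the test, and the macrophage calls of Dusp6 (1.00, adjusted p = 0.558) and Nfkbia (-0.97, adjusted p = 0.35) were lost as well.

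Among growth and stress genes, Rhob, an inducible small GTPase, read 480.1, 575 and 511 CPM in endothelium, 231, 224 and 235 CPM in SMC and 175, 149 and 148 CPM in fibroblasts. The 3 groups did not overlap, with fold changes of 1.18 ± 0.11 and -0.52 ± 0.14 against SMC. Gadd45g, a p38 pathway activator, was 90.4, 90.8 and 89.0 CPM in SMC and 50.8, 25.4 and 12.2 CPM in fibroblasts, a log2 fold change of -1.44 ± 0.30 (edgeR adjusted p = 8.85e-05) that was -2.29 without hashtag 1. Gadd45b passed the test in macrophages, from 0, 0 and 233 CPM, a value carried by 1 animal. Myc, left out of the test, was at 0.722 CPM (95% interval 0.506 to 1.00) in all SMC barcodes and 10.2 CPM (95% interval 7.94 to 12.9) in fibroblasts.

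The heat shock chaperones divided in a different way. Hspb1, a small chaperone abundant in muscle, read 1088, 1004 and 1111 CPM in SMC and 1014, 944 and 1885 CPM in endothelium, which overlapped (0.21 ± 0.12, edgeR adjusted p = 0.134). Fibroblasts were lower at 279, 307 and 282 CPM (-1.89 ± 0.14) and macrophages at 74.5, 64.4 and 139.8 CPM (-3.49 ± 0.28). The pooled macrophage level was 11.8% of that in SMC and that of the smooth muscle markers outside the gate 12.9%. By hashtag Hspb1 stood at 8.78%, 8.93% and 14.0%, below the markers in hashtags 1 and 2 (24.1% in hashtag 2) and above them in hashtag 3 (7.84%). With doubled gates the macrophage fold change was -1.98. The fibroblast level, 21.4% of SMC, was above the 10.2% of those markers there.

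For the inducible pair Hspa1a and Hspa1b, whose promoters are shown above, endothelial and macrophage samples varied between animals. Hspa1a read 57.8, 62.9 and 88.0 CPM in SMC, 23.9, 19.7 and 19.4 CPM in fibroblasts, 123, 70.1 and 444 CPM in endothelium and 186, 129 and 688 CPM in macrophages. Fibroblasts lay below all other samples, with a log2 fold change of -1.71 ± 0.34 against SMC. Endothelial samples overlapped SMC and macrophage samples did not, with fold changes of 1.46 ± 0.19 and 2.22 ± 0.32. Both were smaller without hashtag 3, at 0.70 (edgeR adjusted p = 0.00572) and 1.33 (adjusted p = 0.025), and both still passed. In fibroblasts Hspa1b, at 37.4, 42.3 and 36.5 CPM, was not called (-0.61 ± 0.31). Hspa1b was higher in macrophages, with 224, 64.4 and 851 CPM against 50.0, 54.2 and 70.7 CPM in SMC and 2.70 ± 0.32, or 1.38 (adjusted p = 0.0385) without hashtag 3. Its endothelial fold change of 1.07 became 0.43 (adjusted p = 0.158) without that sample.

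Hsph1, the large nucleotide exchange partner of HSP70, was a smooth muscle gene within this set. It read 149, 135 and 168 CPM in SMC against 40.3, 25.4 and 31.6 CPM in fibroblasts, 35.3, 56.1 and 86.0 CPM in endothelium and 18.6, 32.2 and 117 CPM in macrophages. No sample of the 3 other groups reached an SMC sample, and the fold changes were -2.14 ± 0.21, -1.36 ± 0.18 and -1.27 ± 0.39, the last lost without hashtag 1 and -2.50 without hashtag 3. Hsp90aa1, the inducible cytosolic HSP90, followed, at 736, 721 and 738 CPM in SMC and 466, 479 and 481 CPM in fibroblasts (-0.62 ± 0.14). It was 329, 379 and 736 CPM in endothelium (-0.65 ± 0.14), where hashtag 3 reached the SMC values, and 186, 387 and 664 CPM in macrophages (-0.79 ± 0.22, lost without hashtag 1). Hspa8, the constitutive HSP70 and the chaperone with most UMIs, was 1134, 1158 and 1192 CPM in SMC and 683, 694 and 754 CPM in fibroblasts, a log2 fold change of -0.71 ± 0.12, and was not called in endothelium or macrophages. Dnaja1, an HSP40 co-chaperone, was highest in endothelium, with 426, 545 and 914 CPM against 198, 201 and 243 CPM and 1.52 ± 0.14. Its small fibroblast difference (0.38 ± 0.15) was lost under 8 of 13 alternatives. Dnajb1, the inducible HSP40, passed the test in no comparison with SMC.

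Direct contrasts of the other groups give the order of neighbours. Endothelium exceeded fibroblasts in 23 of 40 members and was lower in 2, Cebpb and Cebpd, against 18.2% and 19.3% of all genes. The samples of 23 members did not overlap, against 23.1% of genes above and 23.5% below. Among the 23 were Atf3 (3.20 ± 0.31), Hspa1a (3.17 ± 0.32), Klf2 (2.62 ± 0.14), Dusp6 (2.55 ± 0.38), Hspb1 (2.10 ± 0.14) and Btg2 (1.86 ± 0.17). Without hashtag 3 Hspa1a was 2.14 and Atf3 2.61, and with hashtags called by margin Atf3 was 1.66. Macrophages exceeded fibroblasts in 16 members and were lower in 4, against 9.95% and 15.7% of genes. Without hashtag 3, a setting for which no share of all genes is given, 4 were higher. In this contrast 12 members did not overlap, against 13.0% of genes above and 28.7% below. They exceeded endothelium in 7 and were lower in 9, against 9.15% and 13.9%, and 11 did not overlap, against 12.5% above and 28.1% below. The lower ones included Klf4 (-3.17 ± 0.30), Klf2 (-2.07 ± 0.21), Rhob (-1.55 ± 0.24) and Jun (-1.27 ± 0.23), and the higher ones Cebpb (1.99 ± 0.28) and Fos (1.36 ± 0.34). Without hashtag 3 Klf2 was -2.85, Jun -2.27 and Cebpb 1.29, all still called.

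Related genes outside the list were counted from 3 fixed lists. Of 15 upstream factors and kinases 12 were tested, and 3 were higher in fibroblasts, 5 in endothelium and 3 in macrophages than in SMC, with 0 lower in each, against 19.9%, 24.1% and 13.6% of all genes higher. The fibroblast count is near that share. In endothelium these included the ternary complex factors Elk3 (3.15 ± 0.17) and Elk4 (2.24 ± 0.18) and the kinase Mapk3 (1.69 ± 0.15). At an unadjusted p under 0.05, edgeR gave 0, 1 and 0 lower genes in the 3 comparisons, with no share of all genes taken at that cut. Of 35 other immediate early and feedback genes 22 were tested, with 6 higher and 4 lower in fibroblasts, 12 and 4 in endothelium, and 6 and 8 in macrophages. In fibroblasts these are near the shares of all genes (19.9% and 19.4%), which were 24.1% and 26.6% in endothelium and 13.6% and 19.8% in macrophages. Id1, a target of BMP signals, and the kinase Sgk1 were the furthest up in endothelium (2.99 ± 0.13 and 2.97 ± 0.12), and Errfi1, an inhibitor of EGF receptors, the furthest down (-2.02 ± 0.19).

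All 26 other heat shock and chaperone genes were tested, and most calls were on the SMC side. In fibroblasts 6 were higher and 12 lower, in endothelium 1 and 13, and in macrophages 0 and 11, also 0 higher at an unadjusted p under 0.05. Of all genes 19.4%, 26.6% and 19.8% were lower and 19.9%, 24.1% and 13.6% higher by adjusted p, and no share was taken at the unadjusted cut. The small chaperone Hspb6 was the furthest down in fibroblasts (-3.94 ± 0.24) and endothelium (-3.34 ± 0.20). Hspb8 and Cryab, small chaperones of muscle, followed in endothelium (-2.75 ± 0.32 and -2.52 ± 0.14). In macrophages the HSP40 gene Dnajb4 was lower (-3.33 ± 0.48, 4 UMIs in all), and Hspa2 and Bag3 had 1 UMI each, too few for a fold. Furthest up in fibroblasts were the factor Hsf2 (1.22 ± 0.32) and the endoplasmic reticulum proteins Hsp90b1 (1.06 ± 0.10) and Dnajc3 (1.05 ± 0.12). Chordc1 was the gene higher in endothelium (0.84 ± 0.18).

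Within a group the members can be compared barcode by barcode after thinning each to 2000 UMIs. These correlations describe cells that share 1 preparation and carry no test. In SMC barcodes the strongest pairs joined the fast AP-1 and EGR genes: Fos with Fosb (Pearson r = 0.54), Egr1 (0.53), Jun (0.46) and Atf3 (0.43), over 6658 barcodes. The median over 903 pairs was 0.026, and Hspa1a with Hspa1b gave 0.35. The summed immediate early and heat shock counts had a Spearman's rho of 0.08 and a Pearson r of 0.21 in SMC, and 0.12 and 0.35 in fibroblasts (1292 barcodes). In endothelium rho was 0.56 and r 0.68 (547 barcodes), with a rho of 0.41, 0.47 and 0.68 within hashtags 1, 2 and 3, and in macrophages they were 0.60 and 0.54 (66 barcodes). Barcodes called as hashtag doublets are included. Barcodes with at least 40 of 2000 UMIs from immediate early genes made up 0.706% of SMC (47) and 0.697% of fibroblast barcodes (9). They made up 4.57% of endothelial (25) and 6.06% of macrophage barcodes (4). Of the endothelial ones 13 belonged to hashtag 3, where they were 9.29% of 140 barcodes, against 1 of 151 and 2 of 95 in the other samples. Endothelial barcodes called as hashtag doublets held 8 of 144, and those without a hashtag 1 of 17.

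Splits of each group by a pair of marker genes were chosen with earlier results of these data known and are described without a test. Their intervals pool the barcodes of all animals and cover counting error only. Intervals that lie apart therefore say nothing about spread between animals. Values per animal are given for Hspa1a in Gpihbp1 barcodes and for Klf4 in fibroblasts only. Endothelial barcodes with Gpihbp1, a capillary gene, and no Vwf (587) exceeded those with Vwf, a large-vessel gene, and no Gpihbp1 (60) in 33 of 43 members. Among genes with at least 20 UMIs, 31 of 40 members were higher against 50.1% of 8501 genes. Counting intervals lay apart for 22 members upwards and 2 downwards, against 9.12% and 10.2% of genes. Median UMIs per barcode were 2450 and 4612. Gpihbp1 is also a gate gene, so barcodes without it had to pass the endothelial gate on Pecam1 and Cdh5 alone. Hspa1a read 285 CPM (261 to 311) against 36.7 CPM (19.5 to 62.7), Hspb1 1522 against 254 CPM, and Klf4 679 against 268 CPM. Pooled SMC levels were 65.7 CPM for Hspa1a, 968 CPM for Hspb1 and 28.5 CPM for Klf4. The Vwf barcodes thus stood below SMC in Hspa1a and Hspb1 and above SMC in Klf4. The Hspa1a value of the Gpihbp1 barcodes was 130.0, 84.1 and 559 CPM in hashtags 1, 2 and 3. Cebpd went the other way, with 45.1 CPM (35.9 to 55.9) against 161 CPM (122 to 208). Klf2, high in both, was 1234 and 649 CPM.

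In fibroblasts, barcodes with the adventitial gene Pi16 and no Lum (112) and those with Lum and no Pi16 (390) differed in Klf4 and Klf2. Of 43 members 18 were higher and 25 lower in the Pi16 barcodes, with intervals apart for 8 upwards and 4 downwards (Dnajb1, Egr1, Egr3 and Rhob), against 7.01% and 5.93% of 8835 genes. With at least 20 UMIs, 18 of 41 members were higher, against 48.9% of those genes, and median UMIs per barcode were 5078.5 and 4099.5. Klf4 read 468 CPM (415 to 527) against 85.2 CPM (71.8 to 100.4), Klf2 271 against 114 CPM and Socs3 65.7 against 13.7 CPM. The Klf4 levels were 287, 441 and 513 CPM against 97.0, 23.3 and 90.5 in the 3 animals, so the order held in each. The intervals of Fos overlapped, at 94.3 CPM (71.2 to 122) and 101 CPM (86.7 to 118). In smooth muscle, barcodes with Pln and no Tnnt2 (855) exceeded those with Tnnt2 and no Pln (1550) in 35 of 43 members, against 51.9% of 12192 genes. Intervals lay apart for 18 upwards and for Cebpd, Hsp90aa1 and Hspb1 downwards, against 3.30% and 3.12% of genes, at median UMIs of 7496 and 7733.5. Among those upwards were Fos 241 against 173 CPM, Nr4a1 131 against 83.5 CPM and Nr4a2 49.7 against 28.1 CPM.

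**Figure D5:**
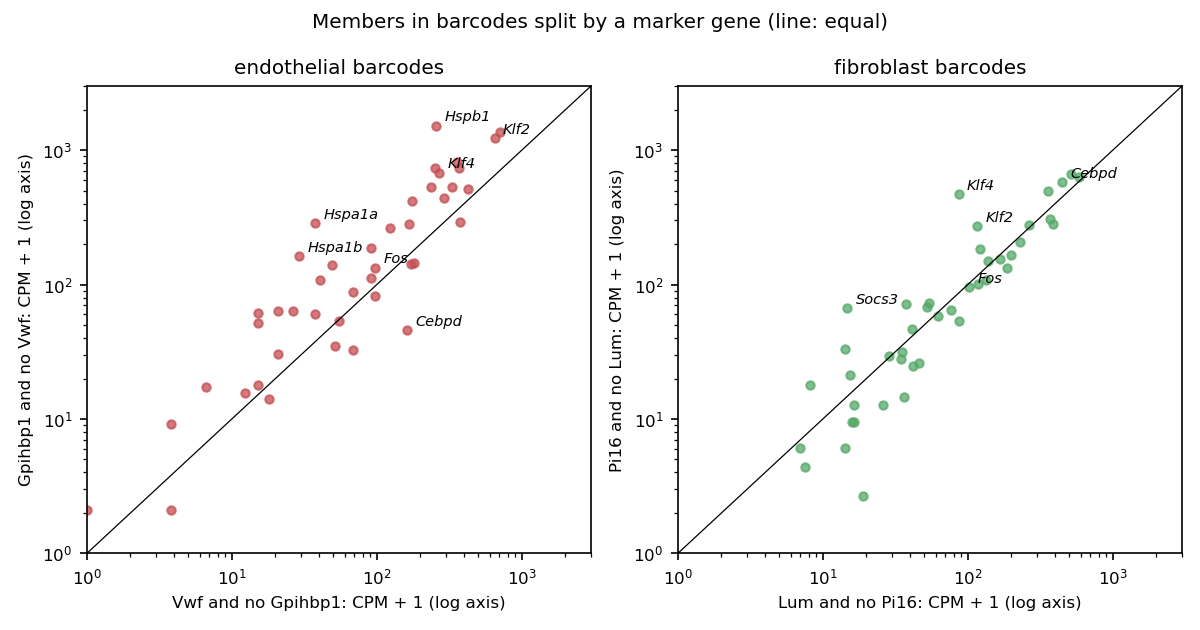
Pooled CPM plus 1 of the 43 members on log axes, in endothelial barcodes split by Gpihbp1 and Vwf and in fibroblast barcodes split by Pi16 and Lum, with a line of equal level. Most endothelial points lie above the line and Cebpd below it, and Klf4, Klf2 and Socs3 lie above it in fibroblasts.

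The mitochondrial share, a measure of damaged cells, was set against the list within smooth muscle. Barcodes above 10% were compared with those at or below 10% in the same 3 animals, over 9501 genes. Of 39 members tested, 0 were higher and 1 was lower, against 0.0737% and 0.147% of all genes. DESeq2 called 0 in either direction, and at an unadjusted p under 0.05 edgeR gave 2 higher and 7 lower. The share of all genes at that unadjusted cut was not taken, so the latter counts have no background. The gene called by edgeR was Hspb1, at 965, 982 and 999 CPM in the high and 1165, 1004 and 1190.2 CPM in the low part, a difference of -0.19 ± 0.05 (adjusted p = 0.0241). That call was lost without the replicate block and without hashtag 1 or 3. In endothelial barcodes, as CPM of non-mitochondrial UMIs, the immediate early sum was 6466, 7901 and 8547 and the heat shock sum 3616, 4277 and 4895 at mitochondrial shares of at most 5%, 5 to 10% and 10 to 20%, which held 17, 122 and 560 barcodes. In SMC the immediate early sum was 4278, 3831 and 3854, with 38 barcodes in the lowest class. The part of RNA quality in the differences between cell groups was not tested beyond these values.

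Side by side, the 3 hashtag samples differed little in SMC and fibroblasts and more in the other groups. SMC and fibroblasts were also the groups where most barcodes had no hashtag call. Whether uncertain hashtag calls narrowed their spread was not tested. The summed level of all 43 members was 6496, 6351 and 6632 CPM in SMC, 9415, 10018 and 14248 CPM in endothelium and 5677, 5177 and 12335 CPM in macrophages. Hashtag 3, the animal of 13 weeks, was the highest in both of the latter, where median UMIs per barcode were 2327, 2645 and 2957 for endothelium and 2893.5, 3620 and 3068.5 for macrophages. With 1 animal per age, age, animal and hashtag cannot be told apart. Without hashtag 3 the members higher than SMC numbered 15 instead of 21 in endothelium and 4 instead of 13 in macrophages. The share of all genes called in that setting is not given, so the drop cannot be read as particular to the members. Those with the largest endothelial fold changes, Klf4, Klf2, Klf10 and Dusp6, passed the test in each of the 12 or 13 alternatives in which they were tested.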

How the data were processed

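Droplet 3′ libraries (Chromium v2 kit, per the labels' protocols) were made from collagenase II (10 mg/mL) and elastase (1 mg/mL) digests. The authors deposited 1 matrix of UMI counts (32285 genes, 48467 barcodes, 166848700 gene UMIs) made with Cell Ranger 6.0.1 per the file headers, with mm10 and Seurat 4.0.5 named in the submitters' processing notes. Neither the labels nor the header state whether counting used strand or how it treated reads shared by paralogs.

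Hashtags were called with HTODemux (Seurat 5.3.0, quantile 0.99) on the kept barcodes. It called 1132, 718 and 890 single barcodes, 1416 doublets and 5783 negatives. Hashtag doublets were left out of the tests but not of pooled levels, shares and correlations, barcodes passing several gates (426) were left out, and no other doublet caller was run. Counts were summed per hashtag and group and fitted with edgeR 4.0.16 (R 4.3.3): TMM scaling, filterByExpr, a quasi-likelihood test, all 4 groups in 1 fit, and Benjamini-Hochberg adjustment over all genes tested at 0.05. Every p in the text is from it unless DESeq2 is named. Each SE given with a fold change is the absolute log2 fold change divided by the square root of the test's F statistic. It restates the test and is no separate measure of precision. The fit was also run on simulated counts with 1 dispersion for all genes and hashtag shifts shared by the groups. Only endothelium and fibroblasts against SMC were checked there, so the run does not cover the macrophage contrasts. P-values rest on a spread between hashtag samples, each read as 1 animal, that was estimated over all 4 groups and moderated across genes. They do not measure the spread within the groups compared alone, so a gene with 1 high macrophage sample can still pass. The spread between animals may be understated in SMC and fibroblasts if hashtag calls mixed animals, which was not tested. Hashtag was a block because the groups come from the same animals. Deviations of same-numbered sums correlated at -0.028 to 0.039 over 18 pairs, with a median of 0.015.

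Shares, correlations and pooled CPM use all kept barcodes of a group. Shares and correlations were taken after thinning, and pooled and summed levels are CPM of all gene UMIs without TMM. Counts per hashtag rest on few macrophages, whose sums held 47739 to 86910 UMIs, and intervals and floors of 3 counts cover counting error only. Alternatives were DESeq2 1.42.0, relative log expression scaling, no filter on low counts, no block, each hashtag left out, hashtags called by a margin of 0.5, a stricter cell filter (1000 UMIs, 10% mitochondrial), doubled gates, under 0.5% smooth muscle UMIs in other groups, only the groups compared and, chosen after seeing the data, no haemoglobin limit. Members, lists and splits were chosen with earlier results of these data known. Values per sample are given for up to 8 members per comparison and direction with the largest fold changes among those called alike in 3 of 3 animals, and for the most counted member of each role. Lists outside the members name up to 3 genes per direction. The values of 1 gene of these lists are not reported here.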

Additional observations from a re-analysis of the deposited data

Results flagged for a closer look

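Barcodes removed by the haemoglobin limit alone (17650 in all) entered no comparison of the report, only the alternative with that limit lifted, and they held signal of both families far above the level that 3 counts would give. In the 14067 removed barcodes that passed the SMC gate the 35 immediate early genes summed to 3196 CPM and the 8 heat shock genes to 2826 CPM. The 625 fibroblast barcodes held 3962 and 1868 CPM, the 229 endothelial barcodes 5992 and 3557 CPM, and the 38 macrophage barcodes 3079 and 2157 CPM. Their median UMIs were 2456, 2720, 3113 and 3081, and the highest floor of 3 counts was 22.3 CPM. Among the kept barcodes of the same 4 groups the immediate early sums were 3456, 3913, 7195 and 6531 CPM and the heat shock sums 3115, 1672, 4049 and 2748 CPM. The removed macrophage barcodes stood lower in immediate early RNA than the pooled kept ones. They lay within the range of the kept hashtag samples, which held 3833, 2853 and 8388 CPM in hashtags 1, 2 and 3. No value per animal is given for the removed barcodes. Whether the removed barcodes hold single cells was not tested.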

How the results depend on the processing

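The direction of all members named as called was kept under every alternative except those given here, and the cause of each change was not tested. Counts of members under an alternative stand without the share of all genes called there. They cannot be read as particular to the members. Members higher than SMC in fibroblasts numbered 5 in place of 9 with DESeq2, with hashtags called by margin and with the stricter cell filter, and 6 to 9 with 1 hashtag left out. Those lower numbered 10 in place of 16 by margin, and 16 to 17 with 1 left out. In endothelium those higher numbered 13 (DESeq2) and 11 (stricter filter) in place of 21, and 15 to 22 with 1 left out, and those lower 4 (stricter filter) in place of 7, and 7 to 8. In macrophages, with 1 left out, those higher ranged from 4 to 16 in place of 13 and those lower from 2 to 8 in place of 4, with 7 under no filter on low counts. For endothelium against fibroblasts those higher ranged from 20 to 24 with 1 left out (17 by margin, 18 with DESeq2 and 18 under the stricter filter, in place of 23), and those lower were 1 with DESeq2, by margin and under the stricter filter in place of 2, and 1 to 6 with 1 left out. With 1 left out, macrophages against fibroblasts ranged from 4 to 18 and 3 to 6, with 11 higher in place of 16 under DESeq2, and against endothelium from 2 to 8 and 6 to 12, with 4 higher in place of 7 (DESeq2) and 14 lower in place of 9 (no filter). In the mitochondrial split the 1 lower member became 0 with DESeq2, by margin and without the replicate block, and 0 to 2 with 1 left out. Without the replicate block the other counts were 8 and 16 (fibroblasts), 21 and 7 (endothelium) and 13 and 4 (macrophages) against SMC, 24 and 2 for endothelium against fibroblasts, and 15 and 4, then 6 and 7, for macrophages against fibroblasts and endothelium. With 1 hashtag left out, some log2 fold changes reversed, the lowest value each time being that without hashtag 3. Junb in endothelium ranged from -0.084 to 1.20. In macrophages against SMC, Zfp36 ranged from -0.029 to 2.97, Gadd45b from -7.85 to 2.46, Nfkbia from -0.97 to 1.75 and Ier3 from -0.31 to 2.75. Against fibroblasts, Gadd45b ranged from -7.31 to 4.56, Klf6 from -0.15 to 1.27, Nr4a1 from -0.84 to 1.76 and Ier3 from -0.45 to 2.51. Against endothelium, Zfp36 ranged from -0.40 to 1.56, Gadd45b from -6.88 to 3.71 and Ier3 from -0.61 to 1.89. The Gadd45b values stand against sums of 0 and are no bound. Doubled gates turned Hspb1 in macrophages against fibroblasts to 0.38. Relative log expression scaling moved the median of all genes in macrophages against SMC from -0.37 to -0.26. The stricter filter for macrophages and a mitochondrial split at 5% were not run because a sum fell under 10 barcodes.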
